A study of Mus musculus with 3 samples.

Results

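The Nrf2 antioxidant genes described here are 10 mouse genes, chosen by name, and every probe set (a group of probes that reads 1 transcript region) whose platform annotation gives exactly 1 gene symbol equal to a member. They comprise the transcription factor gene Nfe2l2, which encodes Nrf2, its repressor gene Keap1, and 8 genes known as Nrf2 targets, namely Nqo1, Gclm, Gclc, Hmox1, Txnrd1, Srxn1, Slc7a11 and Gsr. All 10 had a probe set, 21 probe sets in all out of 45101 on the array, and all 10 were among the 12299 measured genes of 18193 with a usable probe set. A gene counted as measured when its brightest probe set reached, on at least 1 array, an intensity of 78.9, the median of all readings of noncontrol probe sets.

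The readings come from cultured dendritic cells, which present antigen to T cells and were grown here from marrow progenitors. Per the labels, the marrow was that of 6-week-old female C57BL6 mice, the culture received GM-CSF at 20 ng/mL, and the nonadherent cells were taken on day 7. The control cells then received PBS, the second group 1 µg/mL of LPS, the lipopolysaccharide of the bacterial outer membrane that Toll-like receptor 4 senses, and the last group an agent labelled PTX at 100 ng/mL, all for 24 h. The labels leave PTX as an abbreviation, and they give the strain as C57BL/6 for PBS and LPS but as C57BL/7 for PTX. They do not say whether the cultures shared a mouse or a marrow preparation. There was 1 Affymetrix array per group, so no difference has a replicate check, no spread within a group exists and no test was possible. Differences are therefore described by size alone, on the log2(intensity + 16) scale, where a value of 1 corresponds to about 2-fold and dim probe sets are pulled towards 0. A culture of bulk RNA cannot tell a change per cell from a change in the mix of cells.

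Nrf2 is a transcription factor that cells keep scarce: Keap1 holds it in the cytoplasm as an adaptor for a Cul3 ubiquitin ligase, which marks it for degradation. Oxidants and electrophiles modify cysteines of Keap1, Nrf2 then accumulates, pairs with a small Maf protein and binds antioxidant response elements in the DNA of its targets. Those targets make glutathione, reduce thioredoxin and peroxiredoxin, degrade heme and detoxify quinones, and in macrophages and dendritic cells they are known for balancing the oxidants that activated phagocytes produce.

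The promoter sequence of a target is where such an element would lie, and members that differ together are read here beside it. The RefSeq promoter table (build GRCm38.p6, 250 bases before to 50 bases after a transcript start) held 9 windows for 7 of the 10 members. The core TGACNNNGC, searched on both strands, was present in 4 of these 9 windows, those of Nfe2l2, Srxn1, Gclm and 1 of the 3 Txnrd1 starts, against 12.4% of all 32851 windows of that length. The Nqo1, Slc7a11 and Keap1 windows held no match, which says only that these letters are not in those 300 bases. The 4 matches are shown 5′ to 3′ on the strand of the gene with the core in capitals, and all but that of Nfe2l2 lie on the opposite strand, so that they read as the reverse complement.
Nfe2l2 (chr2:75704885-75704913, minus strand): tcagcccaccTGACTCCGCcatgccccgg
Gclm (chr3:122245413-122245441, plus strand): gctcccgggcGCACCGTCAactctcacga
Txnrd1 (chr10:82859104-82859132, plus strand): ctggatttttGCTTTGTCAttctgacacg
Srxn1 (chr2:152105542-152105570, plus strand): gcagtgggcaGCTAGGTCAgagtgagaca
The Nfe2l2, Gclm and Txnrd1 cores begin 240, 134 and 92 bases before the start, and that of Srxn1 begins at base 29 counted from it. The looser core TGANNNNGC was present in 7 of the 9 windows, from 6 of the 7 members, but also in 41.3% of all windows.

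Srxn1 was the only member among these windows to hold the AP-1 type site TGANTCA, also searched on both strands, which 7.81% of all windows hold. It had the site at 102 and at 45 bases before the start, and the second of these overlaps a match to TGANNNNGC on the same strand. The 250 bases before the Srxn1 start (chr2:152105274-152105523, plus strand) are shown with both sites in capitals, since Srxn1 is the member with the most probe sets and with matches to all 3 motifs.
Srxn1: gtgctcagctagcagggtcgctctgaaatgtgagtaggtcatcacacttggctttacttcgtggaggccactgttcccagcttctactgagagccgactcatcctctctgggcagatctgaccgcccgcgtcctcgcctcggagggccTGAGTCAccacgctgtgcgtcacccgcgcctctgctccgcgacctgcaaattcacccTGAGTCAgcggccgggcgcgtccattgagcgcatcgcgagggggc
A match is a description of the letters and not evidence of binding.

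The LPS array differed from the PBS and PTX arrays in its median reading and in its hybridization controls. Noncontrol probe sets had a median intensity of 85.7 (PBS), 65.3 (LPS) and 86.9 (PTX), and 14 of the 18 bacterial hybridization controls read higher on the LPS array than on the PBS array (median log2 difference 0.20). All 13 dendritic cell marker genes with a probe set were measured, with the class II gene H2-Aa at 6707, 9184 and 7605 and Itgax, which encodes CD11c, at 2383, 1691 and 1294 (PBS, LPS, PTX, the order used throughout). Of 11 macrophage marker genes 10 were measured too, with Csf1r, the receptor for macrophage colony-stimulating factor, at 9043, 12166 and 11151. None of 4 B cell and 3 erythroid marker genes reached the measured level in its brightest probe set by mean log2 value, although a second probe set of Pax5 did. Of 5 T cell genes Cd3d and Cd3g stayed under that level on all arrays, and Cd3e (88.2, 65.0 and 75.5), Cd4 (186, 104 and 238) and Cd8a (126, 119 and 124) reached it on at least 1. Of 8 neutrophil genes Mpo and Elane stayed under it and the other 6 reached it on at least 1 array, with S100a8 at 6074, 9306 and 4007.

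In cells kept with PTX most of the Nrf2 target genes read lower than in cells kept with PBS, whereas the genes of Nrf2 and Keap1 did not in their brightest probe sets. Of the 8 targets 7 lay below PBS: the quinone reductase gene Nqo1 (log2 difference -2.29), the glutathione synthesis genes Gclm (-1.65) and Gclc (-1.24), the heme oxygenase gene Hmox1 (-1.08), Txnrd1 (-0.97), Srxn1 (-0.93) and Slc7a11 (-0.76). Only the glutathione reductase gene Gsr lay above it (0.30), and Nfe2l2 (0.18) and Keap1 (0.52) did as well. Of the 10 members 4 were at least 2-fold lower and none was 2-fold higher, where 2.37% of all measured genes were at least 2-fold lower and 3.04% at least 2-fold higher. The median member differed by -0.95 and the median measured gene by 0.01.

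In cells kept with LPS the members did not lie on 1 side. Gclm (-1.37), Gclc (-1.10) and Nqo1 (-1.04) were at least 2-fold below PBS, 3 of 10 members, and none was 2-fold above it. On this array 13% of all measured genes were at least 2-fold lower and 6.5% at least 2-fold higher, so a share of that size is less unusual here than on the PTX array. Hmox1 (0.71) and Gsr (0.62) lay above PBS, and Nfe2l2 (-0.67), Slc7a11 (-0.63), Txnrd1 (-0.39), Keap1 (-0.37) and Srxn1 (-0.06) lay below it. The median member differed by -0.51 and the median measured gene by -0.08. Both comparisons use the same PBS array, so the LPS and PTX differences of a gene are not independent.

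**Figure D1:**
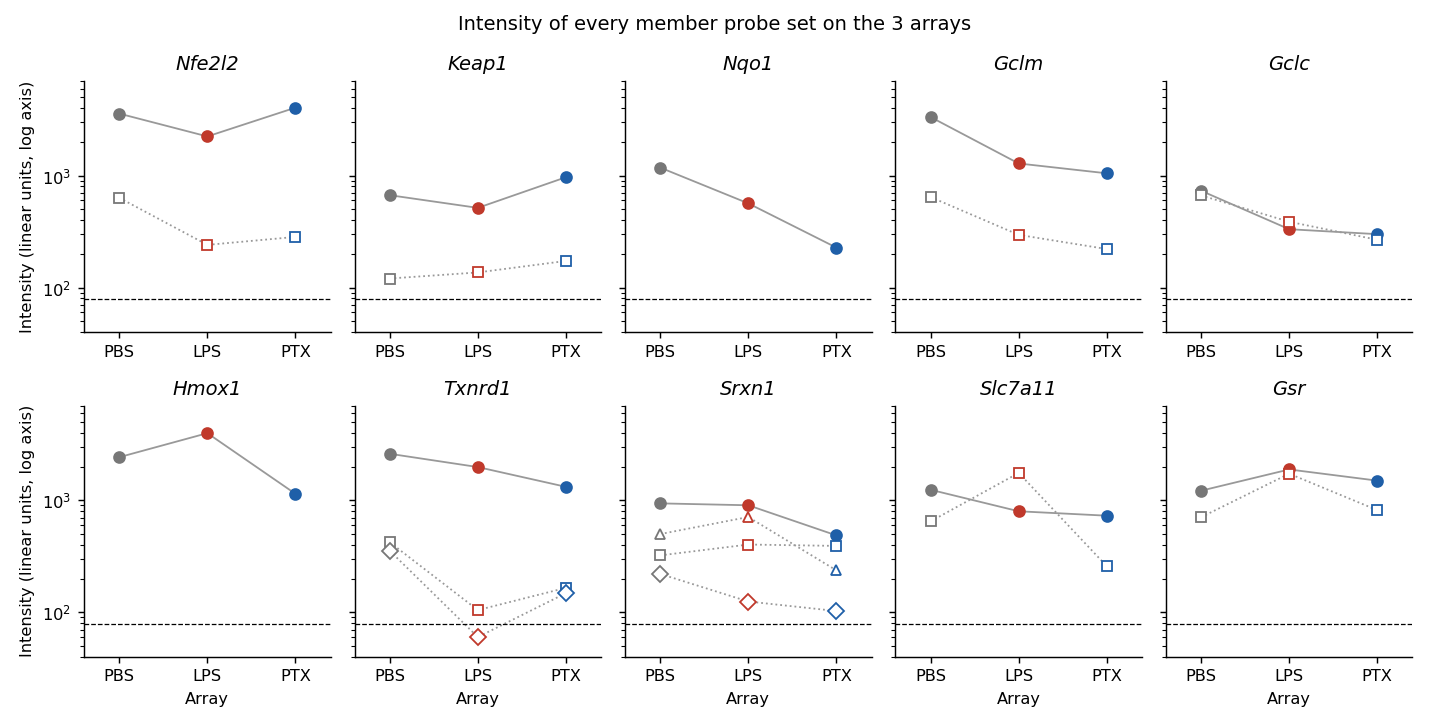
Intensity (linear units on a log axis) of all 21 probe sets of the 10 members on the PBS (grey), LPS (red) and PTX (blue) array, 1 panel per gene; filled circles joined by a solid line are the brightest probe set, open symbols with dotted lines the others, and the dashed line is the measured level of 78.9. Nqo1, Gclm and Gclc step down from PBS to LPS to PTX in every probe set, Hmox1 is highest on the LPS array, and the 2 probe sets of Slc7a11 part on the LPS array.

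The transcription factor and its repressor were read by 2 probe sets each. Nfe2l2 read 3582 (PBS), 2239.7 (LPS) and 4049 (PTX) in its brightest probe set (1416543_at). The other Nfe2l2 probe set (1457117_at) read 633, 241 and 284. Thus LPS was below PBS in both probe sets (-0.67 and -1.34), while PTX was close to PBS in the brighter and 2-fold lower in the dimmer of them (0.18 and -1.12), and the direction of Nfe2l2 in PTX depends on the probe set. Keap1, the repressor, read 669, 515 and 968 in 1 probe set (1450746_at) and 121, 137 and 173 in the other (1450747_at). PTX was highest in both (0.52 and 0.47 against PBS), and LPS lay below PBS in the brighter (-0.37) and slightly above it in the dimmer (0.16). Against LPS, PTX was higher by 0.85 for Nfe2l2 and by 0.89 for Keap1 in the brighter probe sets. It was higher by 0.22 and 0.31 in the dimmer ones. With median centring the brighter probe sets were at 0.44 and 0.49.

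Nqo1 encodes NAD(P)H quinone dehydrogenase 1, which reduces quinones by a pair of electrons and is widely used as a readout of Nrf2. Its only probe set read 1179.95 with PBS, 565 with LPS and 228 with PTX. The PTX reading was 5.18 times below that of PBS and 2.48 times below that of LPS, and the LPS reading 2.09 times below PBS. Only 33 measured genes had a lower difference in PTX against PBS than Nqo1.

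Gclc and Gclm encode the catalytic and the modifier subunit of glutamate-cysteine ligase, the rate-limiting enzyme of glutathione synthesis. Gclm read 3336, 1284 and 1049 in its brighter probe set (1418627_at) and 643, 296 and 221 in the dimmer (1439050_at). Gclc read 733, 332 and 300.1 in 1424296_at and 666, 388 and 267 in 1455959_s_at. All 4 probe sets gave the order PBS, LPS, PTX from high to low, with differences from -1.37 to -0.76 in LPS and from -1.65 to -1.24 in PTX against PBS. Between PTX and LPS the differences were -0.29 and -0.40 for the probe sets of Gclm and -0.14 and -0.51 for those of Gclc. Over the scalings the brightest probe set lay between -0.70 (median centring) and -0.08 (hybridization controls) for Gclm and between -0.53 and 0.06 for Gclc, so the sign for Gclc turned.

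Slc7a11 encodes xCT, the transporter that imports cystine, from which the cysteine of glutathione is made. Its probe set 1443536_at read 1241, 798 and 728, and 1420413_at read 648, 1756 and 258. PTX was thus the lowest array in both (-0.76 and -1.28 against PBS), but LPS was below PBS in the former (-0.63) and 2.71 times above it in the latter (1.41). Whether Slc7a11 was higher or lower in LPS than in PBS is not settled by these readings, and the mean of both probe sets was 0.39. Slc3a2, the heavy chain that carries xCT to the cell surface, read 2583, 4221 and 2600.

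Gsr encodes glutathione reductase, which returns oxidized glutathione to its reduced form with NADPH. It read 1217, 1886 and 1498 in 1421817_at and 706, 1728 and 817 in 1421816_at. Both probe sets put LPS highest and PBS lowest, with 0.62 and 1.27 in LPS and 0.30 and 0.21 in PTX against PBS. It was the only target above PBS in PTX in every probe set.

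Txnrd1 encodes the cytosolic thioredoxin reductase, a selenoprotein that keeps thioredoxin reduced. Its brightest probe set (1421529_a_at) read 2602, 1980.45 and 1319, the next (1424486_a_at) 422, 104.5 and 165, and the last (1424487_x_at) 354, 59.99 and 148. PTX lay below PBS in all 3 probe sets by similar amounts (-0.97, -1.27 and -1.17). LPS lay below PBS in all 3 too, but by amounts that ranged from -0.39 to -2.28, the last with an LPS reading under the measured level. The order of LPS and PTX therefore differed between them, with PTX lower in the brightest probe set (-0.58) and higher in the others (0.59 and 1.11).

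Srxn1 encodes sulfiredoxin, which repairs over-oxidized peroxiredoxins, and had 4 probe sets. The brightest (1426875_s_at) read 939, 902 and 486. The probe set 1451680_at read 499, 709 and 237, 1425351_at read 220.04, 125 and 103, and 1419942_at read 322, 403 and 391. Of the 4, 3 put PTX below PBS by about the same amount (-0.93, -1.03 and -0.99), and 1419942_at put it above (0.27). In LPS 2 lay above PBS (0.31 and 0.49) and 2 below (-0.06 and -0.75), so that no direction against PBS can be given.

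Hmox1 encodes heme oxygenase 1, which opens the heme ring to biliverdin, iron and carbon monoxide. Its only probe set read 2427 with PBS, 3977 with LPS and 1142 with PTX, so LPS was 1.64 times above PBS and PTX 2.13 times below it. The gap between LPS and PTX was 3.48-fold (-1.79 for PTX against LPS), and it was the largest among the brightest probe sets of the 10 members. Hmox1 has 1 probe set, so of the processing settings only the pseudocount and the scaling could move this gap. Over those settings the gap kept its sign and stayed past 2-fold, from -2.20 to -1.58. In PTX against LPS as a whole 2 of 10 members (Hmox1 and Nqo1, -1.25) were at least 2-fold lower and none higher, where 6.24% of all measured genes were lower and 13.7% higher. Markers of other cell types differed between these arrays too. Of the macrophage markers 10 of 11 genes were at the measured level on each array, and Cd163 stayed under it on all arrays. The sum of the 11 read 22497, 34467 and 38520. In their brightest probe sets Adgre1 (2898, 7695 and 4834), Cd68 (2972, 6694 and 5296) and Csf1r were highest in LPS. The other measured macrophage markers, C1qa (1626, 1031.5 and 3025) among them, were highest in PTX. Markers of neutrophils summed to 10591, 11895 and 6702 over 8 genes, mostly from S100a8 and S100a9 (3877, 1924 and 1083), whereas Csf3r was higher in PTX (303, 204 and 1329). Markers of mast cells and eosinophils summed to 507, 2228 and 379 over 8 genes, of which 2, 3 and 1 were at the measured level. Of these Prg2 (117, 1274 and 31.4) and Cpa3 (96.3, 549.55 and 74.2) were highest in LPS and lowest in PTX, the order of Hmox1. Their PTX readings were under the measured level. Mcpt4 (69.2, 112 and 91.6), the other measured gene of the list, was highest in LPS too but lowest in PBS. The neutrophil markers S100a8 and Camp (70.7, 259 and 37.7) also had the order of Hmox1, Camp with PBS and PTX under the measured level. The other measured neutrophil markers did not have that order. The part of these cells in the Hmox1 values was not tested.

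**Figure D2:**
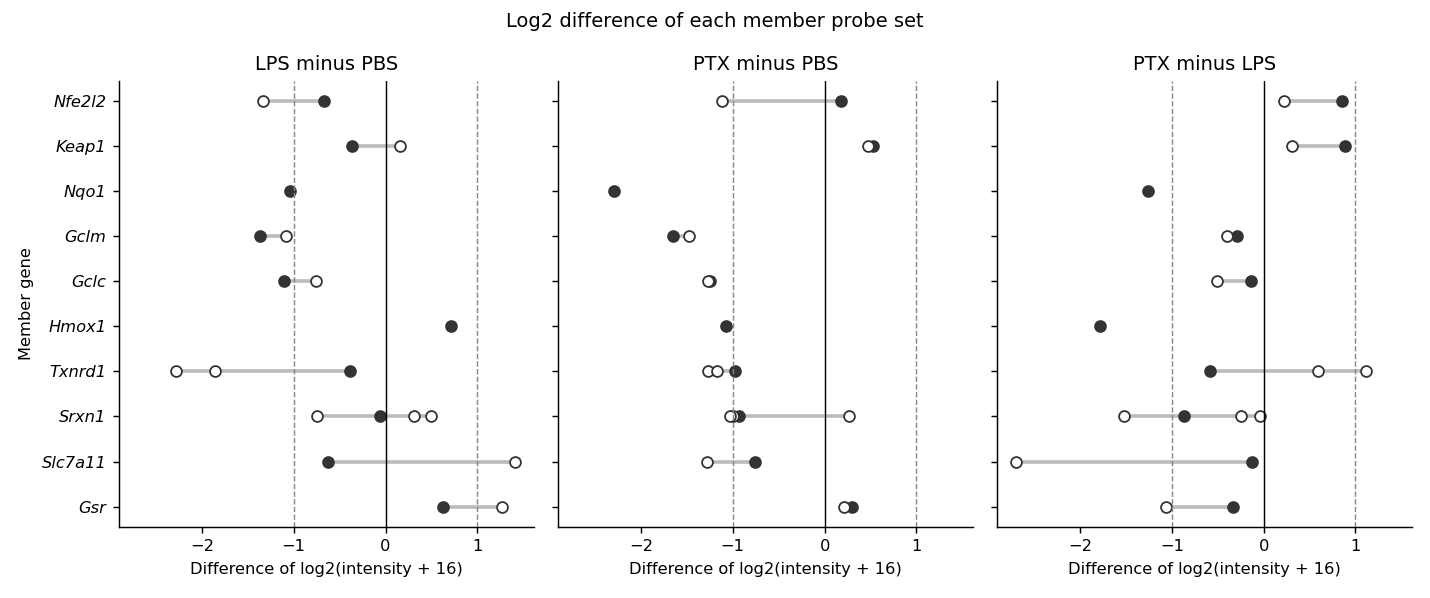
Difference of log2(intensity + 16) for every probe set of each member in LPS minus PBS, PTX minus PBS and PTX minus LPS; filled circles are the brightest probe set, open circles the others, the grey bar joins the probe sets of a gene and the dashed lines mark 2-fold. In PTX minus PBS all probe sets of Nqo1, Gclm, Gclc, Hmox1, Txnrd1 and Slc7a11 lie left of 0, whereas in LPS minus PBS those of Srxn1, Slc7a11 and Keap1 lie on both sides.

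Counted by probe set, 11 of the 21 were at least 2-fold lower in PTX against PBS and none higher, where 2.19% of all 21805 measured probe sets were lower and 2.76% higher. In LPS against PBS 7 of the 21 were at least 2-fold lower and 2 higher (Slc7a11 1420413_at and Gsr 1421816_at), where 16.3% and 6.23% of all probe sets were. In PTX against LPS 5 were at least 2-fold lower and 1 higher (Txnrd1 1424487_x_at), where 6.22% and 17.3% of all probe sets were. Probe sets of 1 gene read the same RNA and are no replicates.

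Set among all measured genes, the lower targets were near the low end in PTX against PBS but not in LPS against PBS. Counted from the lowest difference of the 12299 genes in PTX, Nqo1 stood at rank 34, Gclm at 102, Gclc at 195, Hmox1 at 259, Txnrd1 at 312, Srxn1 at 350 and Slc7a11 at 494. The last of these had 4.01% of all measured genes below it. Gsr had 17.8% of genes above it, Nfe2l2 27.8% and Keap1 8.70%. In LPS the lowest member was Gclm at rank 1001, followed by Gclc at 1417 and Nqo1 at 1534, while Hmox1 had 10.7% and Gsr 12.6% of genes above it.

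**Figure D3:**
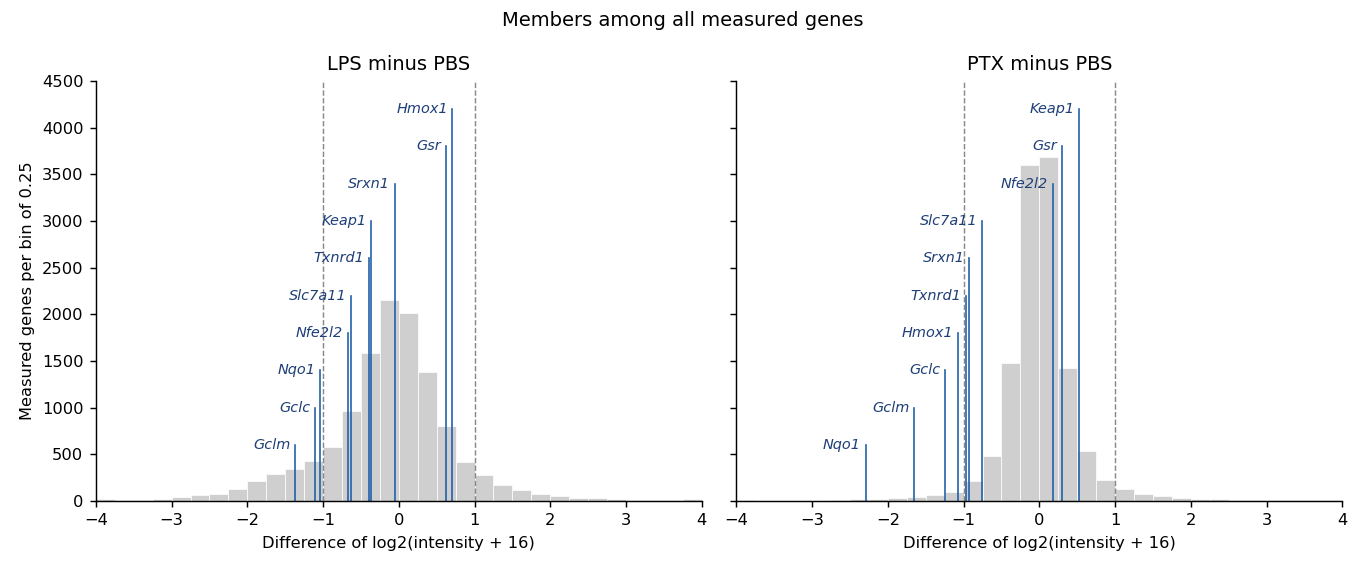
Number of measured genes (grey bars, bins of 0.25, the end bins holding all values beyond 4 on either side) by difference of log2(intensity + 16) in LPS minus PBS and PTX minus PBS, with the 10 members as blue lines whose height carries no meaning and dashed lines at 2-fold. The spread of all genes is narrower in PTX, where 7 targets stand left of the bulk of the genes, than in LPS, where the members are spread across it.

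The scaling of the arrays moved the LPS values more than the PTX values. The median measured gene in LPS against PBS was -0.08 as deposited and 0.31 after each array was centred on its median, and the share of genes with a higher reading among those at least 2-fold apart went from 33.3% to 61.4%. For PTX against LPS that share went from 68.7% to 37.3%. Measured against the median gene of each scaling, over 5 scalings, Gclm lay between -1.67 and -1.28 in LPS, Nqo1 between -1.15 and -0.96, Gclc between -1.04 and -1.02, Hmox1 between 0.30 and 0.79 and Gsr between 0.33 and 0.71. On the same measure Keap1 lay between -0.36 and -0.28 and Srxn1 between -0.18 and 0.03. The plain difference from PBS, not set against the median gene, turned sign in LPS for Keap1 with median centring (0.02). For Srxn1 it did so with median centring and with scaling on the 75th percentile. In PTX against PBS no member changed direction between the scalings, with Nqo1 between -2.45 and -2.29 and Slc7a11 between -0.87 and -0.76 against the median gene.

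**Figure D4:**
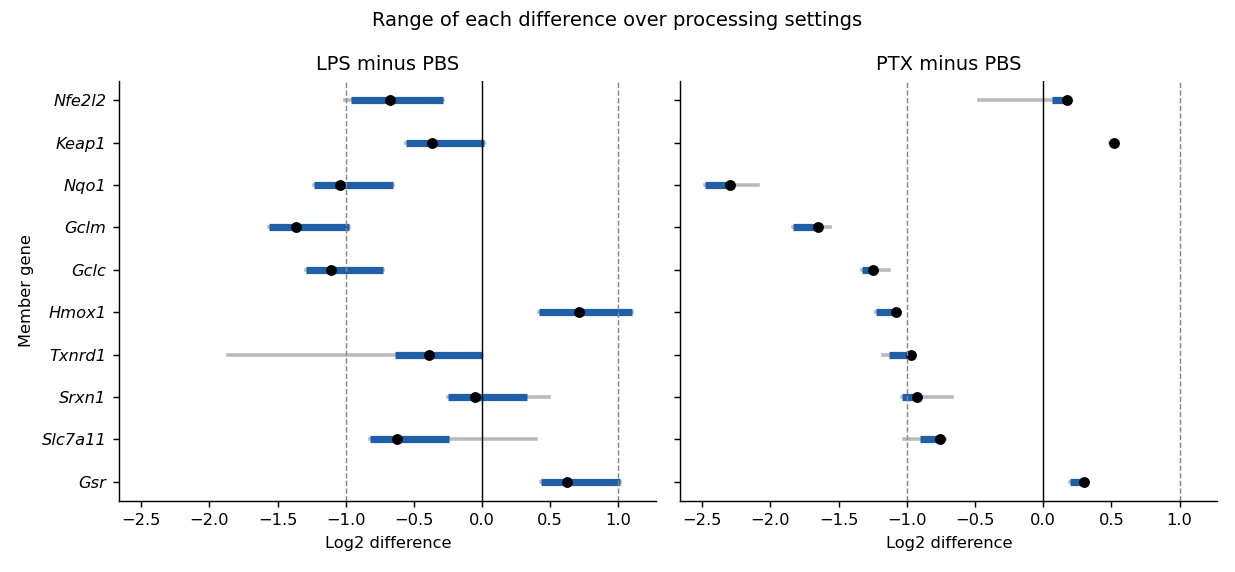
Log2 difference of each member in LPS minus PBS and PTX minus PBS under all processing settings; the black point is the value as reported, the blue bar spans 5 scalings of the arrays, the grey line spans all 12 settings (11 for Txnrd1) and the dashed lines mark 2-fold. Nqo1, Gclm, Gclc and Hmox1 stay below -1 in PTX under every setting, whereas in LPS no member stays past 2-fold under all of them. For Nqo1 and Hmox1, with 1 probe set each, only the pseudocount and the scaling could move the value.

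The wider pathway was read through 9 gene lists with 134 measured genes. In PTX against PBS 6 of the 134 were at least 2-fold lower and 3 higher, that is 4.48% and 2.24%, beside 2.37% and 3.04% of all measured genes. In LPS against PBS 14 were lower and 15 higher, 10.4% and 11.2%, beside 13% and 6.5% of all measured genes. In PTX against LPS 18 were lower and 9 higher, 13.4% and 6.72%, beside 6.24% and 13.7% of all measured genes. The genes of these lists that passed 2-fold against PBS are named below, with the reading of any other measured probe set where it did not pass. Not all genes that passed only in PTX against LPS are named.

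Among 14 genes for partners, rivals and turnover of Nrf2 none was 2-fold apart in PTX against PBS (median -0.25). The small Maf genes, whose proteins pair with Nrf2 on DNA, differed by -0.25 (Mafg), -0.66 (Maff) and 0.45 (Mafk). Bach1, the repressor that competes for the same elements and holds Hmox1 down, read 2332, 1029 and 2671, which was -1.17 in LPS (-3.33 in its other measured probe set) and 0.19 in PTX. The related factor gene Nfe2 (-1.88) and the ubiquitin ligase subunit gene Rbx1 (-1.13) were lower in LPS as well, and Bach2 was higher (1.17). Sqstm1, which encodes the Keap1-binding autophagy receptor p62, read 3243, 4570.2 and 2279, with its other measured probe set at -1.98 in LPS. The median of this list in LPS was -0.07, with a sign that differed between scalings.

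Glutathione synthesis, transport and use had 16 measured genes. In PTX against PBS 1 was at least 2-fold lower, the glutathione conjugate exporter gene Abcc1 (-1.10, and -1.21 in its other probe set), with Gss, which encodes glutathione synthetase, at -0.75 and a list median of -0.28. In LPS 2 were higher, the glutaredoxin gene Glrx, which read 2331, 8259 and 1811 (1.82), and Abcc5 (1.70, with its 8 other measured probe sets from -0.24 to 3.27). Glutathione peroxidases, which use glutathione to reduce peroxides, were within 2-fold in both, with Gpx1 at 0.52 and 0.31 and Gpx4 at 0.74 and -0.25 in LPS and PTX.

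Of 17 measured glutathione S-transferase genes, which join glutathione to electrophiles, Mgst3 was the only one past 2-fold in PTX, where it read 374 against 1106 (-1.52, but -0.13 in its other measured probe set). In LPS Gsta3 (2.03) and Gstm2 (1.64) were higher and Gstm4 (-1.27) and Mgst3 (-1.05) lower. The Gstm genes are close relatives, and their probes may not be specific. The medians of the list were 0.37 in LPS and -0.03 in PTX.

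Thioredoxins and peroxiredoxins, the partners of Txnrd1 and Srxn1, were read through 12 measured genes. All 12 were within 2-fold in PTX against PBS (median 0.04). By brightest probe set Txnrd1 (-0.97) and Srxn1 (-0.93) were just within it too, but lower than all 12. The values in PTX included -0.75 for Msra and -0.51 for Txnrd3 (-0.99 in its other measured probe set), with Txn1, the cytosolic thioredoxin, at 6912, 13027 and 7468 and the peroxiredoxin gene Prdx2 at 1715, 3250 (0.92 against PBS) and 2381 (0.47). In LPS the methionine sulfoxide reductase gene Msrb1 was higher (1.29) and Msra lower (-1.45). Genes that supply NADPH were likewise within 2-fold in PTX, 11 of 11 (median 0.02), with the pentose phosphate gene Pgd at -0.37, the isocitrate dehydrogenase gene Idh1 at 0.13, the malic enzyme gene Me2 at -0.35 and the folate cycle gene Mthfd2 at 0.19. In LPS Nnt was lower (-1.04, with its 2 other measured probe sets at -0.52 and 0.47), and Idh1 (-0.74), Me2 (-0.63) and Mthfd2 (0.59) were within 2-fold.

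Heme and iron handling, the pathway of Hmox1, had 18 measured genes. In PTX the constitutive heme oxygenase gene Hmox2 was 2-fold higher and read 1431, 2818 and 3197 (1.15), in the direction opposite to Hmox1, and so was Slc11a1, the phagosomal metal transporter gene (1.16). The transferrin receptor gene Tfrc was lower (-1.03, but 0.04 in its other measured probe set). In LPS Slc11a1 (2.73), Slc11a2 (1.11, with its 3 other measured probe sets from -0.48 to 0.79) and the heme synthesis gene Alas1 (1.11, with 0.98 in its other measured probe set) were higher. The iron exporter gene Slc40a1 read 578, 97.1 and 282, -2.39 in LPS and -0.99 in PTX, with its other measured probe set at -0.66 and -0.04.

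Of 20 other detoxification and antioxidant genes 19 were within 2-fold in PTX (median 0.07). The exception was Ptgr1, the prostaglandin reductase gene, which read 4379, 5228 and 1382 (-1.65). In LPS the mitochondrial superoxide dismutase gene Sod2 (1.47) and the metallothionein gene Mt2 (3105, 8796 and 1713 on the 3 arrays) were higher, and Ephx1 (-1.14) and Aldh9a1 (-1.17) lower. The Nqo1 relative Nqo2 differed by 0.12 in LPS and -0.57 in PTX.

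The Atf4 pathway, an amino acid stress response that also drives Slc7a11, had medians of -0.51 in LPS and -0.29 in PTX over 18 measured genes. In PTX 2 were at least 2-fold lower, the serine synthesis genes Phgdh, which read 671, 307 and 138 (-2.16), and Psat1 (-1.59). Of the 3 other measured probe sets of Phgdh the differences ranged from -1.98 to -0.48, and the other one of Psat1 was at -1.44. Both were at least 2-fold lower in LPS too (-1.09 and -1.05), but none of their other measured probe sets was (-0.97 to -0.13 for Phgdh and -0.62 for Psat1). Also lower in LPS were Atf3 (-1.61) and Sesn2 (-2.80, but -0.12 in its other measured probe set), and Ddit4 was higher (2.17). Atf4 itself was within 2-fold (0.49 in LPS, 0.05 in PTX).

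The list for NADPH oxidase and reactive species had 8 measured genes. It includes Acod1, which is not itself a source of oxidants. In LPS Nos2, the inducible nitric oxide synthase gene (2.06), Acod1, the itaconate synthesis gene (1.60), and Rac2 (1.18, but -0.66 in its other measured probe set) were at least 2-fold higher and none was lower (median 0.90). In PTX the xanthine dehydrogenase gene Xdh was higher (1.46) and the other 7 were within 2-fold, with Cybb, the catalytic subunit of the phagocyte NADPH oxidase, at 0.56 and Acod1 at -0.02.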

How the data were processed

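RNA from 3 cultures of mouse bone marrow-derived dendritic cells (PBS, LPS or PTX) was read on 1 Affymetrix array each. The deposited table holds linear intensities, 1 per probe set and array, lowest value 1. The labels describe one-cycle labelling from 3 µg of RNA; how probes were summarised, corrected and scaled is not given in the sources used here. Intensities were used as deposited, with a pseudocount of 16 before log2 (Python 3.11.15, pandas 2.3.3).

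Of 45101 probe sets 64 were controls, 34958 had 1 gene symbol (13 updated through the RefSeq gene table, none a member) and 932 several, which were left out. The brightest probe set by mean log2 value stood for each gene. With 1 array per group there is no test and no p-value, SD or SE, and the number of arrays limits precision. The members, lists and settings were chosen with earlier results of these data known. All members are named. Of each pathway list, up to 4 measured genes with the largest difference from PBS are named. All past 2-fold are named too where a comparison with PBS has 5 or fewer. Of marker lists, defining genes at the extremes of level are named. Mafg, Maff, Mafk, Sqstm1, Slc3a2, Gpx1, Gpx4, Pgd, Nqo2, Atf4, Cybb, Txnrd3, Itgax, C1qa, S100a9, Csf3r, Cpa3, Cd3e, Cd8a and Pax5 fall outside that rule and were chosen after their values were seen. The same holds for Adgre1, Cd68, Mcpt4 and Camp. Of 163 list symbols 148 had a usable probe set and 134 were measured. The gene table was tested on simulated arrays. Alternatives changed the pseudocount (1, 64), the scaling, the probe set rule, the filter on low values and the fold (1.5).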

Additional observations from a re-analysis of the deposited data

How the results depend on the processing

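The counts of members at least 2-fold apart depended on the scaling in LPS and little in PTX. In LPS against PBS 3 members were lower and 0 higher as reported, 0 lower and 2 higher (Hmox1 and Gsr) with median centring, and 1 lower (Gclm) and 1 higher (Hmox1) with 75th percentile scaling. In PTX against LPS the count higher went from 0 to 1 with quantile normalization and to 2 with scaling on the hybridization controls. The shares of all genes higher there were 9.79% and 17.6%. With a limit of 1.5-fold 5 members were lower and 2 higher in LPS against PBS, beside 22.5% and 13.6% of all measured genes. In PTX against PBS 7 were lower and 0 higher, beside 6.29% and 7.44% of genes. In PTX against LPS 3 were lower and 2 higher at that limit, beside 14.4% and 23.3% of genes. In PTX against PBS the count lower was between 4 and 6 under the other settings, beside 1.65% to 2.89% of all genes. The filter on low values could not change any member difference, and the probe set rule could not change those of Nqo1 and Hmox1. With these fixed values included, of 327 recomputed member differences 316 moved by less than 1.5-fold and 11 by more. None that was at least 2-fold changed sign. Those 11 came from the rule for several probe sets of Nfe2l2, Txnrd1, Slc7a11 and Srxn1; with the median over probe sets Txnrd1 was at -1.86 in LPS against PBS. Txnrd1 had no value without probe sets whose names end in _x_at, _s_at or _a_at. Of 648 list counts 149 changed by more than 1.5 times, and none of 297 list medians moved by that much. The looser promoter core matched 6 member genes against 4. No paired analysis was possible because each group held 1 array. Spread between cultures could not be estimated.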

Other observations

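Probe sets of 1 gene disagreed more for some members than for most genes. Over 5519 genes with at least 2 measured probe sets, the range of their differences had a median of 0.73 and a 90th percentile of 2.12 in LPS against PBS, and of 0.24 and 0.68 in PTX against PBS. In LPS against PBS the range was 2.04 for Slc7a11 and 1.89 for Txnrd1, inside that 90th percentile. In PTX against PBS it was 1.29 for Nfe2l2 and 1.30 for Srxn1, beyond it, whereas it was 0.02 for Gclc, 0.05 for Keap1, 0.09 for Gsr and 0.18 for Gclm. A range can only widen as probe sets are added, and genes were not matched for their number (4 for Srxn1, 3 for Txnrd1). The source of the disagreement was not tested.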
